A study of Homo sapiens with 4 samples.

Results

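The 32 genes described here are 18 enzymes and regulatory kinases of glycolysis and 14 other genes that cells are known to switch on when oxygen is short. They are a fixed list of named genes, of which those with 10 counts in 2 or more libraries were to be kept. All 32 were found among the 20363 genes counted, and all 32 are among the 14970 that passed this filter. The cells were DAOY, a line derived from a human medulloblastoma of the cerebellum, and their RNA was sequenced in 4 libraries. Control (CTL) cells and ZNF521 cells were each treated with DMSO or with SAG, and each of these conditions had 1 library and no replicate. SAG is an agonist of SMO that switches on Sonic hedgehog (SHH) signalling, DMSO is its vehicle, and ZNF521 is a zinc finger transcription co-factor. The ZNF521 cells carried a lentiviral vector for FLAG-tagged ZNF521 together with EGFP. The description of the series calls the control cells WT, whereas a figure legend of the study gives them a control vector, so the effect of transduction and that of ZNF521 cannot be told apart if the former holds. The study's methods describe a range of SAG doses, given after the cells had been starved. Which dose the sequenced cells received, and whether they were starved, is not given in the sources used here. The study asked how ZNF521 and SAG change the transcriptome of these cells, and the same question is put here to glycolysis and the hypoxia response.

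Glycolysis splits glucose into pyruvate in the cytosol, and lactate dehydrogenase turns pyruvate into lactate when cells do not oxidise it in mitochondria. Under low oxygen, prolyl hydroxylases of the EGLN family stop marking HIF1A protein for destruction by VHL, and HIF1A with ARNT then binds short DNA elements in front of most glycolytic genes and of genes for glucose import, acid export, angiogenesis and mitophagy. SHH signalling is known to raise glycolysis in the granule neuron precursors of the cerebellum, HK2 being the enzyme most often named in that setting.

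The core of a hypoxia response element is ACGTG, or the variant form GCGTG, and a factor can read it on either strand. In the RefSeq promoter table of GRCh38.p14, 28 of the 32 genes had an entry. SLC2A3, VEGFA, BNIP3L and NDRG1 had none. At least 1 core, on either strand, lay within the 250 bases before a start of 24 of these 28 genes (85.7%), while 47.4% of all 27303 genes in the table had one. Genes with several starts have more chances to hold a core, and counted by promoter the shares were 33 of 55 (60%) and 43.2% of 35114. By promoter ACGTG stood in 38.2% of the 55 and 18.5% of all, and GCGTG in 32.7% and 32.2%. The genes were listed as glycolytic or hypoxia-induced, so a higher share of cores was built into the choice and is no result of these data. The background was the whole promoter table, expressed in these cells or not. The letters CACGTG, an E-box that holds ACGTG on both strands, were present in front of 8 of the 28 genes (28.6%), against 7.73% of all genes. Counted by promoter the shares were 8 of 55 (14.5%) and 6.35%. The GLI consensus TGGGTGGTC stood in front of 0 of the 28 genes and of 0.253% of all genes. These matches describe letters only and say nothing about binding.

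The promoters of P4HA1 and PDK1 are shown because these genes passed the unadjusted threshold with SAG, and those of BNIP3, LDHA and PGK1 as examples of promoters with 3 or more cores. Each line gives the 250 bases before an annotated start, 5′ to 3′ on the strand of the gene, with both forms of the core, read on either strand, in capitals. P4HA1 (chr10:73096867-73097116, minus strand) has 1 core. PDK1 has a start with no core (chr2:172555123-172555372, plus strand) and another with 2 (chr2:172555840-172556089, plus strand), the nearer of which ends 3 bases before the start. BNIP3 (chr10:131981924-131982173, minus strand) has 6 cores, LDHA (chr11:18394313-18394562, plus strand) has 5 and PGK1 (chrX:78103998-78104247, plus strand) has 3. Each strand was counted, so that a CACGTG counts as 2 cores in 1 stretch of capitals, which occurs 1 time in BNIP3 and 2 times in LDHA. Another start of LDHA, not shown, has 1 core, and starts of HK2 and ALDOC, not shown, have 6 and 5.
P4HA1: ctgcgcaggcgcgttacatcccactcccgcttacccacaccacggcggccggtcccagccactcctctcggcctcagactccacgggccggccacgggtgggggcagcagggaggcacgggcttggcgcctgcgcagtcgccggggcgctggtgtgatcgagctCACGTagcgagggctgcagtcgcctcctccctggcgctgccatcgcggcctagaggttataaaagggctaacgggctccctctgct
PDK1, start with no core: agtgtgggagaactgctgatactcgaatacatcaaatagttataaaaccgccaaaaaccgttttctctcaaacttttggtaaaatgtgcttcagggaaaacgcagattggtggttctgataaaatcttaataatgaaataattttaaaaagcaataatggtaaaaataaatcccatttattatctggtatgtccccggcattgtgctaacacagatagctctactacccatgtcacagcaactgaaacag
PDK1, start with 2 cores: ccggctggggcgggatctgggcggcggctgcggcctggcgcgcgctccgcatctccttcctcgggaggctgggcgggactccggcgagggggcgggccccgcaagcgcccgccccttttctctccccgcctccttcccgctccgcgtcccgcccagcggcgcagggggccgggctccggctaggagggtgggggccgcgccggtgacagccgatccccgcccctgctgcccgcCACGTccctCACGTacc
BNIP3: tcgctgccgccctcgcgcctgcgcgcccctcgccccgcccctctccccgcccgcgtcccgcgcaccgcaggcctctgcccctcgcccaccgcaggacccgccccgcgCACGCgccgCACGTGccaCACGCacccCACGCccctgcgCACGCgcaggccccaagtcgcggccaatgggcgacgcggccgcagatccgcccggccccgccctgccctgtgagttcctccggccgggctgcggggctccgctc
LDHA: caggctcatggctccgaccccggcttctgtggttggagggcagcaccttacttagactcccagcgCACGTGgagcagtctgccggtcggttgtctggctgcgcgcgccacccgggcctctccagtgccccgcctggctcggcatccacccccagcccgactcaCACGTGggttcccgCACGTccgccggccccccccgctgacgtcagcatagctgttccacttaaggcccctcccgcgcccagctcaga
PGK1: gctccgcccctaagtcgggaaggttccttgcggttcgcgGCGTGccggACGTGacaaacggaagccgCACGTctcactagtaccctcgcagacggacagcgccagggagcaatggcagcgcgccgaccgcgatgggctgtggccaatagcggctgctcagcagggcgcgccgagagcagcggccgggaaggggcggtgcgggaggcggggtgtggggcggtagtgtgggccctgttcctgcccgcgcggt

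Normalized counts, which are counts that the authors divided by 1 size factor per library, were set per kb of the GENCODE canonical transcript to compare levels between genes. ENO1, the enolase of most tissues, led with a mean of 38300 per kb (31800 to 41400 over the 4 libraries). PKM, the pyruvate kinase of most non-liver tissues, followed at 29500 per kb, and GAPDH, which makes the NADH of the pathway, at 24300. TPI1, the triose phosphate isomerase, stood at 14300 per kb, LDHA, the lactate dehydrogenase subunit that favours lactate, at 6380, and PGK1, the ATP-making phosphoglycerate kinase, at 2630. The ranges over libraries of these 6 genes did not overlap with the next in order, so the order held in each library. All 6 act on 3-carbon intermediates, as PGAM1 and ENO2 do, which stood at 899 and 391 per kb. The 12 enzymes below these 6 lay between 147 per kb for PFKFB4 and 1610 per kb for PFKL, and the 14 other hypoxia genes between 37.8 per kb for PDK1 and 793 per kb for BNIP3. PDK1 was divided by a canonical transcript of 14072 bases, the longest of the 32.

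**Figure D1:**
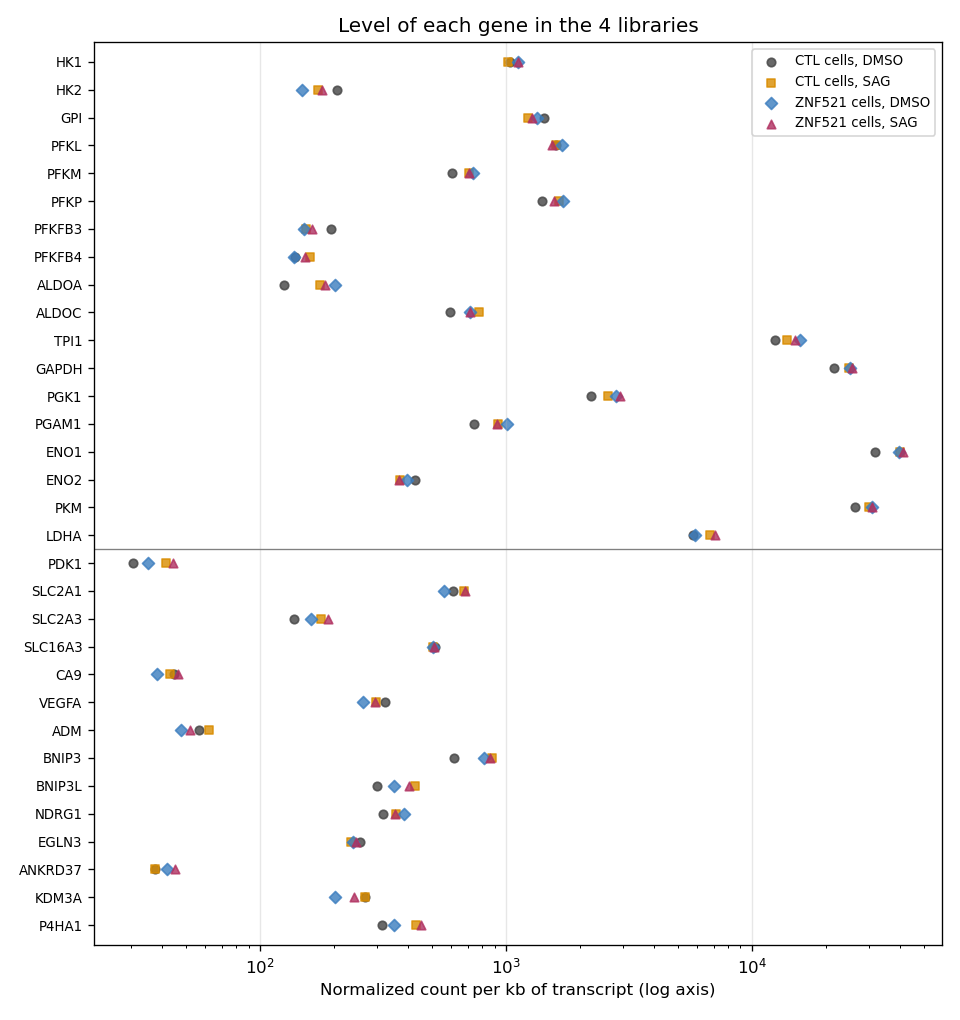
Normalized count per kb of transcript on a log axis for the 32 genes in the 4 libraries, with the 18 enzymes above the line and the other 14 hypoxia genes below it. ENO1, PKM, GAPDH and TPI1 lie at 12400 or more in each library, and each gene's 4 points lie close together beside the distance between genes.

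One isozyme led most steps in all libraries. Of the 2 hexokinases, which trap glucose in the cell, HK1 held 83.5 to 88.3% of the per-kb level and HK2 the remaining 11.7 to 16.5%. Phosphofructokinase, the committed step, was shared between PFKL (40.4 to 44.3%), PFKP (39.0 to 41.6%) and PFKM (16.8 to 18.6%). ENO1 held 98.7 to 99.1% of the enolase level beside ENO2, the neuronal form. PFKFB3 and PFKFB4, kinases that make the activator of phosphofructokinase, stood nearly even, with PFKFB3 at 48.9 to 58.3%. SLC2A1, the glucose transporter of most cells, had 77.6 to 81.7% and SLC2A3, a transporter of high affinity known from neurons, the rest.

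ALDOC, the brain aldolase, held 77.9 to 82.5% of the aldolase level and ALDOA the rest, but the level of ALDOA is uncertain. In the annotation, 89.5% of the 50-base stretches of the ALDOA transcript also occur in the gene ENSG00000285043, which lies over it on the same strand, and how the authors' counting treated such reads is not stated. Shared stretches were also frequent in PGAM1 (56.8%, with a near copy elsewhere), BNIP3 (35.3%, with the pseudogene BNIP3P1), TPI1 (27.3%, mostly TPI1P1), SLC2A3 (24.7%, mostly SLC2A14), NDRG1 (23.7%) and GAPDH (20.4%). GPI had 15.1%, LDHA 12.2% and HK2 8.80%, and the other 22 genes less than 4%. Counts of these 10 genes may be split with their copies. On the opposite strand, ARHGEF39 covers 35.7% of the exon bases of CA9 and UFSP2 covers 40.3% of those of ANKRD37. The library kit keeps strand, and the strand setting of the counting is not stated.

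The labels were checked before the comparisons. Total counts ran from 12294833 to 16314685. ZNF521 stood at 713.7 and 751.1 normalized counts in CTL cells with DMSO and SAG and at 2013 and 2072 in ZNF521 cells (adjusted p = 0.00357, edgeR's quasi-likelihood test with Benjamini-Hochberg adjustment over 14970 genes). GLI1, a target of SHH signalling, stood at 75.4 and 44.2 with DMSO and at 323.7 and 318.1 with SAG in CTL and ZNF521 cells (adjusted p = 0.00054, edgeR). HHIP (8.52-fold, adjusted p = 0.00613, edgeR) was likewise higher with SAG, while PTCH1 (1.47-fold) had an adjusted p of 0.391 in edgeR. Of 8 markers of the granule neuron lineage, 5 reached 10 normalized counts in a library, whereas ATOH1, BARHL1 and NEUROD1 did not. Markers of blood cells, endothelium and glia summed to 12.4 to 89.1 normalized counts per library. The 4 epithelial markers summed to 12863 to 14788, nearly all of it KRT8 and KRT18. EPCAM and CDH1 were low, at 11.0 to 22.6 and 12.4 to 28.8. DMSO-treated CTL cells stood apart: their log2 deviation from the mean of the libraries had an SD of 0.274 over 9161 well counted genes, against 0.126 to 0.143 in the other 3. A gene with a high or low value in that library enters both comparisons with it, since it is a control in each.

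Each comparison set 2 libraries against 2, and the libraries on 1 side differ in the other factor, so they are not replicates. The spread that edgeR used therefore holds library noise and any unequal response, and p values may be too small or too large as a measure of the conditions. Calls by the study's own threshold (p of 0.05 or less, not adjusted) are given beside those by the adjusted p. Expression was read over whole cultures, in which fewer cells that express a gene and less RNA per cell cannot be told apart.

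The first comparison asked whether ZNF521 cells differ from CTL cells in these genes. The 32 genes lay close to CTL levels: fold changes ran from 0.82 for KDM3A to 1.29 for ALDOA. None passed the adjusted threshold, which 0.00668% of all genes tested passed in either direction, and 0 of 32 passed the unadjusted threshold, against 5.48% of all genes (2.36% higher and 3.11% lower). The median log2 fold change was 0.10 over the 18 enzymes, of which 13 lay above 0, and 0.02 over the 14 other genes, of which 7 did. Of all genes 49.4% lay above 0, with a median of -0.00. The median standard error of the 32 genes was 0.156. DESeq2 also called 0 at the unadjusted threshold, against 1.12% of all genes, and limma called ALDOA, against 7.11%. In fits without 1 library the median of the enzymes ran from 0.04 to 0.20 and that of the others from -0.06 to 0.11.

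ALDOA had the smallest p. It stood at 205.1 (DMSO) and 288.7 (SAG) normalized counts in CTL cells and at 331.3 (DMSO) and 302.0 (SAG) in ZNF521 cells, a log2 fold change of 0.36 (SE 0.186, unadjusted p = 0.0746, edgeR). Both ZNF521 libraries lay above both CTL libraries, but the gap was wide with DMSO and narrow with SAG. With DMSO the ratio was 1.62 (95% counting interval 1.35 to 1.94) and with SAG 1.05 (0.889 to 1.23). It was the 1 gene of the 32 with a difference of 1.5-fold or more in any of the 4 pairs of libraries, and 6.89% of all genes were higher by as much in this pair and 8.76% lower. In the other pairs the shares of all genes higher and lower by as much were 3.37% and 2.87% for ZNF521 with SAG, 8.68% and 10.8% for SAG in CTL cells, and 2.96% and 3.67% for SAG in ZNF521 cells. All such intervals are exact, cover counting error only and hold no biological spread.

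PGK1, an enzyme far better counted than ALDOA, stood at 10633 and 12577 normalized counts in CTL cells with DMSO and SAG and at 13499 and 13974 in ZNF521 cells. Its log2 fold change of 0.24 had an SE of 0.172 and an unadjusted p of 0.191 in edgeR. TPI1 stood at 16804 and 18832 in CTL cells and at 21149 and 20233 in ZNF521 cells (0.21, SE 0.181). GAPDH stood at 27854 and 31843 in CTL cells and at 32289 and 32833 in ZNF521 cells (0.12, SE 0.191). In each of these genes the groups did not overlap and the CTL library with DMSO was the lowest. Counted over the list, 7 of 18 enzymes (HK1, PFKM, ALDOA, TPI1, GAPDH, PGK1 and PKM) and ANKRD37 had both ZNF521 libraries above both CTL libraries, as 13.3% of all genes had. This order can rest on a gap within counting error. With SAG the ratio was 1.01 for PFKM (0.95 to 1.07), and the ALDOA interval also held 1. For ANKRD37 the interval held 1 with DMSO (0.662 to 1.94) and with SAG (0.724 to 2.05).

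In the opposite direction, VEGFA, ADM and KDM3A had both ZNF521 libraries below both CTL libraries, and 13.0% of all genes had. KDM3A, a histone H3K9 demethylase that hypoxia induces, stood at 1244 and 1249 normalized counts in CTL cells with DMSO and SAG and at 940.5 and 1127 in ZNF521 cells. Its log2 fold change was -0.29 (SE 0.153, unadjusted p = 0.083, edgeR). VEGFA, the main angiogenic growth factor, stood at 1160 and 1071 in CTL cells and at 947.7 and 1056 in ZNF521 cells (-0.17, SE 0.154). ADM, a vasodilator peptide, was low, at 84.4 and 92.5 in CTL cells and at 71.0 and 77.6 in ZNF521 cells. None of these 3 genes passed either threshold. With SAG the counting interval of the ratio held 1 for VEGFA (0.906 to 1.07) and ADM (0.616 to 1.14), but not for KDM3A (0.832 to 0.978). With DMSO it held 1 for ADM (0.603 to 1.17).

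The ratios of the cells lay further from 1 with DMSO than with SAG, a difference that was not tested. For the 18 enzymes the median log2 ratio of ZNF521 to CTL cells was 0.22 with DMSO (-0.48 to 0.69) and 0.05 with SAG (-0.11 to 0.15). For the other 14 genes it was 0.07 (-0.40 to 0.42) and 0.02 (-0.25 to 0.27), and for all genes 0.03 and -0.00. The pair with DMSO holds the CTL library that stood apart from the rest, and its part in this difference was not tested. Without that library, in a fit of the other 3, the median log2 fold change of the enzymes for ZNF521 was 0.04.

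**Figure D2:**
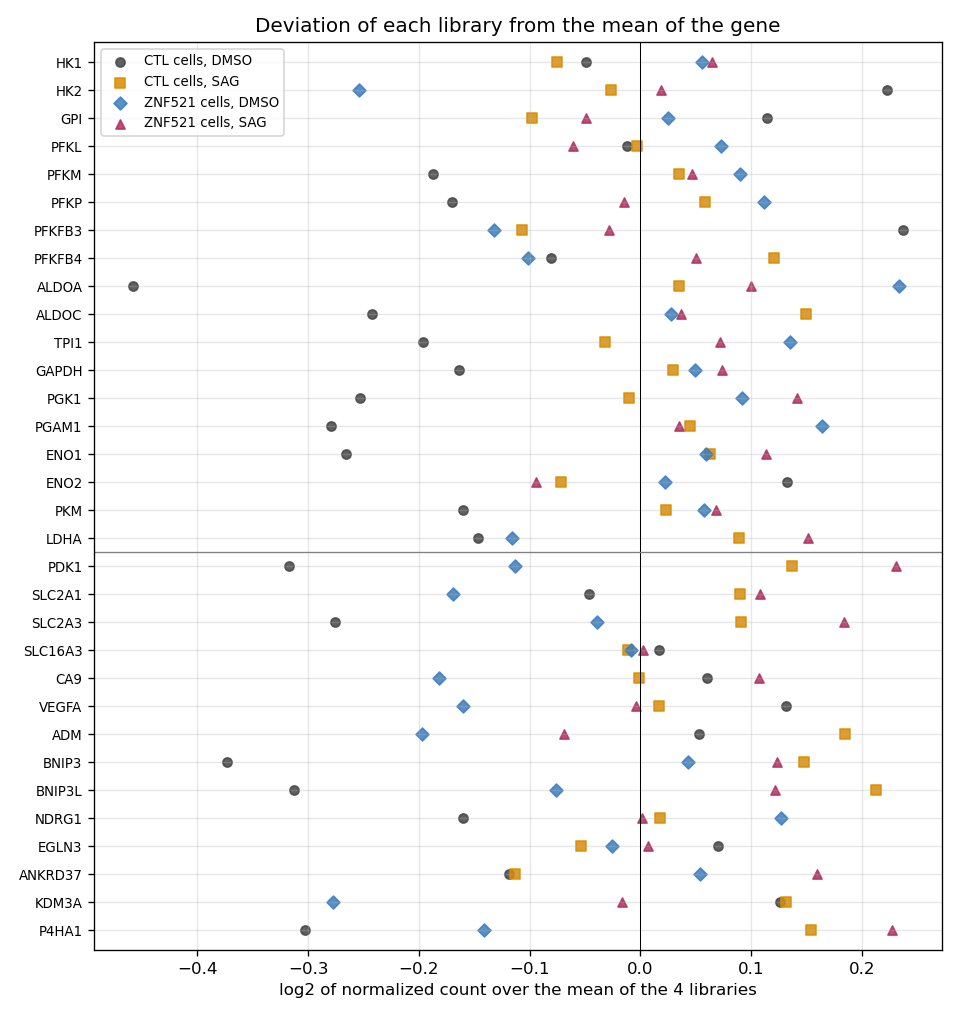
Log2 of each library's normalized count over the mean of the gene, for the 32 genes, with the 18 enzymes above the line. DMSO-treated CTL cells, in dark circles, lie furthest left for 11 of 18 enzymes and 7 of the other 14 genes, with ALDOA the widest.

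As the plot of deviations shows, DMSO-treated CTL cells were the lowest library for 11 of 18 enzymes and for 7 of the other 14 genes, and 37.5% of all genes were lowest there. ENO1 was at 56700 normalized counts there and at 71033 to 73765 in the other 3 libraries, and PKM was at 60900 there and at 69119 to 71336 in the others. PGAM1, the phosphoglycerate mutase, stood at 1335 there and at 1660 to 1815 elsewhere. ALDOC was at 949.9 there and at 1145 to 1246 elsewhere. As a share of all counts, the 18 enzymes made up 1.56% (DMSO) and 1.77% (SAG) in CTL cells and 1.81% (DMSO) and 1.85% (SAG) in ZNF521 cells. The share in DMSO-treated CTL cells was thus the lowest, and its 95% counting interval (exact Clopper-Pearson, 1.56 to 1.57%) did not reach the others. A few genes went the other way, and HK2, GPI, PFKFB3, ENO2, SLC16A3, VEGFA and EGLN3 were highest in that library, where 34.5% of all genes were.

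The second comparison asked whether SAG changes these genes. With SAG, P4HA1, PDK1 and BNIP3L were higher by 1.28 to 1.33-fold at the unadjusted threshold, and no gene of the 32 passed the adjusted one. That makes 3 of 32 genes, all higher, where 6.21% of all genes tested were called higher, 5.12% lower and 11.3% in either direction. The adjusted threshold was passed by 0.0401% of all genes. The median log2 fold change was 0.13 over the 14 hypoxia genes that are not enzymes, of which 12 lay above 0, and 0.09 over the 18 enzymes, of which 13 did, with 50.1% of all genes above 0. DESeq2 called 0 of the 32, against 2.83% of all genes. In fits without 1 library the median of the other 14 genes ran from 0.15 to 0.20. That of the enzymes was -0.04 without DMSO-treated CTL cells and 0.20 without DMSO-treated ZNF521 cells.

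P4HA1, a subunit of the prolyl hydroxylase that matures collagen, stood at 857.4 (DMSO) and 1177 (SAG) normalized counts in CTL cells and at 959 (DMSO) and 1238 (SAG) in ZNF521 cells. Both SAG libraries lay well above both DMSO libraries. The log2 fold change was 0.41 (SE 0.149, unadjusted p = 0.016, adjusted p = 0.391, edgeR), and the ratio was 1.37 in CTL cells (1.25 to 1.5) and 1.29 in ZNF521 cells (1.19 to 1.40). Its gene spans chr10:73007217-73096974 on hg38.

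PDK1, the kinase that turns off pyruvate dehydrogenase and so keeps pyruvate out of the mitochondria, stood at 427.2 and 585.3 in CTL cells with DMSO and SAG and at 491.9 and 624.3 in ZNF521 cells. Again the groups did not overlap. The log2 fold change was 0.40 (SE 0.156, unadjusted p = 0.0244, adjusted p = 0.397, edgeR), with ratios of 1.37 (1.20 to 1.56) and 1.27 (1.13 to 1.43). PDK1 spans chr2:172555373-172608669.

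BNIP3L, a receptor that marks mitochondria for mitophagy, stood at 1028 and 1480 in CTL cells with DMSO and SAG and at 1211 and 1389 in ZNF521 cells, also without overlap. The log2 fold change was 0.36 (SE 0.152, unadjusted p = 0.0347, adjusted p = 0.412, edgeR). Its ratio was 1.44 in CTL cells (1.32 to 1.56) and 1.15 in ZNF521 cells (1.06 to 1.24), and its log2 fold change without DMSO-treated CTL cells was 0.24, against 0.33 for P4HA1 and 0.29 for PDK1. BNIP3, its paralog in the same role, stood at 944.9 and 1356 in CTL cells and at 1261 and 1333 in ZNF521 cells (0.30, SE 0.158, unadjusted p = 0.082, edgeR). In BNIP3 most of the difference lay in CTL cells, where the ratio was 1.43 (1.32 to 1.56), against 1.06 (0.981 to 1.14) in ZNF521 cells.

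Among the genes of glucose import, SLC2A1 stood at 2071 and 2276 normalized counts in CTL cells with DMSO and SAG and at 1902 and 2305 in ZNF521 cells (0.21, SE 0.146). SLC2A3 stood at 525.7 and 677.8 in CTL cells and at 619.4 and 723 in ZNF521 cells (0.29, SE 0.154, unadjusted p = 0.0794, edgeR). Both were higher with SAG in either kind of cells without passing a threshold. LDHA stood at 12914 and 15205 in CTL cells and at 13192 and 15883 in ZNF521 cells (0.25, SE 0.172). Its ratios were nearly equal, at 1.18 (1.15 to 1.21) and 1.20 (1.18 to 1.23), and it had the highest log2 fold change of the 18 enzymes for SAG. Both SAG libraries lay above both DMSO libraries in PFKFB4, ALDOC, ENO1, LDHA, PDK1, SLC2A1, SLC2A3, BNIP3, BNIP3L and P4HA1, which is 10 of 32, where 25.4% of all genes had this order. Both lay below in GPI and ENO2, where 22.7% of all genes had that order.

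Most of the 32 genes passed no threshold, several of them often read as markers of hypoxia. SLC16A3, the lactate exporter, stood at 1338 (DMSO) and 1312 (SAG) normalized counts in CTL cells and at 1315 and 1325 in ZNF521 cells, the narrowest range of the 32 genes. CA9, the carbonic anhydrase on the cell surface, was low, at 69.4 and 66.5 in CTL cells and at 58.7 and 71.7 in ZNF521 cells, and ANKRD37 lower still, at 29.2 to 35.4. EGLN3, the prolyl hydroxylase that HIF itself induces, ranged from 634.9 to 691.6, and VEGFA from 947.7 to 1160. The ratio of SAG to DMSO for hexokinase 2 had opposite directions in the 2 kinds of cells, and this difference was not tested: HK2 stood at 1155 with DMSO and 972.1 with SAG in CTL cells, and at 830.4 and 1003 in ZNF521 cells, for a log2 fold change of 0.01 (SE 0.167). The 1.5-fold filter that the study put before its test (25% of the values 1.5-fold or more from the median of the gene) would have kept 0 of the 32 genes, against 17.0% of the genes tested here. The highest library was 1.5-fold or more above the lowest for ALDOA alone, and for 32.3% of all genes.

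**Figure D3:**
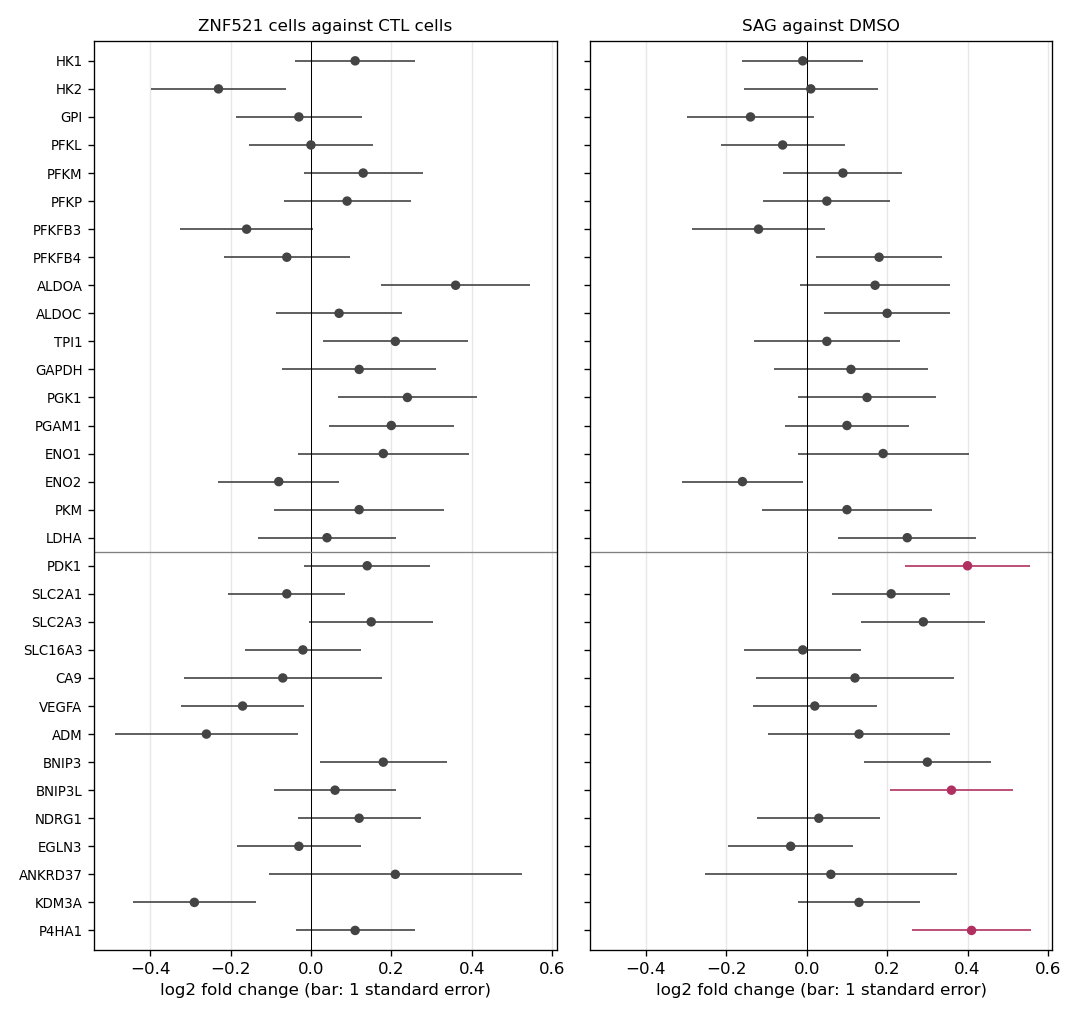
Log2 fold change of the 32 genes for ZNF521 against CTL cells (left) and for SAG against DMSO (right). Bars show 1 standard error derived from edgeR's F value, and genes past the unadjusted threshold are in red. No gene is red on the left, where values run from -0.29 to 0.36, and P4HA1, PDK1 and BNIP3L are red on the right.

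The fold changes for SAG moved with the base composition of the transcripts over all genes and over the other hypoxia genes, and not by rank over the enzymes. Over all 14601 genes with a transcript in the annotation, log2 fold change and GC content had a Pearson r of -0.59, and over the 32 genes -0.60 (Spearman -0.44), with the same 4 libraries behind each point. Over the 14 other hypoxia genes r was -0.70 (Spearman -0.73) and over the 18 enzymes -0.29 (Spearman -0.02). The 7 genes with a GC content under 45% (LDHA, PGK1, PDK1, BNIP3, BNIP3L, KDM3A and P4HA1) had a median log2 fold change of 0.30 (0.13 to 0.41) and the other 25 a median of 0.06, where all genes had 0.20 and -0.11. P4HA1 has 39.7% GC, PDK1 39.5% and BNIP3L 37.4%, so the 3 genes called with SAG are the 3 lowest in GC of the 32. For ZNF521 r was -0.09 over the 32 genes and -0.31 over all genes.

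When the dependence on GC content was taken out per library, the genes called with SAG changed. P4HA1 then had a log2 fold change of 0.19 (unadjusted p = 0.195, edgeR), PDK1 of 0.17 (unadjusted p = 0.234), BNIP3L of 0.07 (unadjusted p = 0.612) and LDHA of 0.07. In their place ALDOA (0.38), ALDOC (0.33), PFKFB4 (0.31) and SLC2A1 (0.29) passed the unadjusted threshold, which makes 4 of 32, against 5.03% of all genes in that fit. SLC16A3, the highest in GC of the 32 (64.7%), moved from -0.01 to 0.28 (unadjusted p = 0.0519, edgeR) and CA9 from 0.12 to 0.30. VEGFA was then at 0.08, ANKRD37 at 0.01 and EGLN3 at -0.10. The medians stayed above 0, at 0.18 for the enzymes (16 of 18 above 0) and 0.16 for the others (13 of 14 above 0). For ZNF521, ALDOA (0.43) and KDM3A (-0.33) passed it after the correction, as did 5.76% of all genes. Which of the fits is nearer to the RNA content of the cells was not tested.

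**Figure D4:**
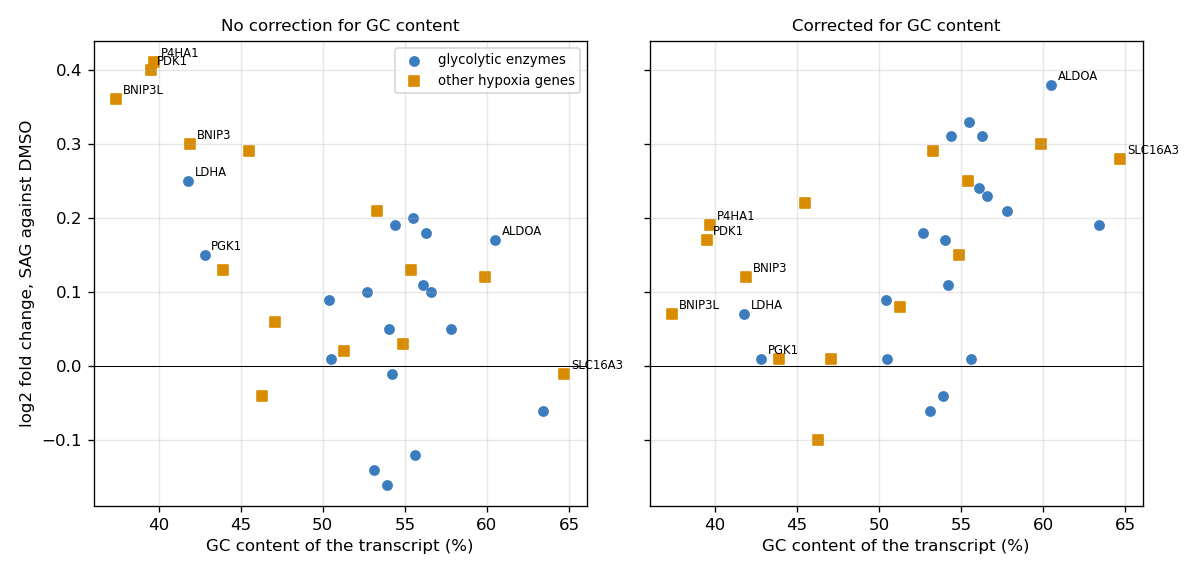
Log2 fold change for SAG against DMSO over the GC content of the canonical transcript, without (left) and with (right) a correction for GC content, for 18 enzymes (circles) and 14 other hypoxia genes (squares). Without it the genes at the low GC end, P4HA1, PDK1 and BNIP3L, lie highest, and with it ALDOA does.

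Around these genes, HIF1A was the gene of the HIF list with the smallest p for SAG. It stood at 2015 (DMSO) and 3692 (SAG) normalized counts in CTL cells and at 2742 (DMSO) and 3626 (SAG) in ZNF521 cells. Its groups did not overlap, and the log2 fold change was 0.64 (SE 0.161, unadjusted p = 0.00167, adjusted p = 0.391, edgeR). HIF1A has 39.4% GC, and with the correction the value was 0.41 (unadjusted p = 0.012, edgeR). It was also 0.41 without DMSO-treated CTL cells, the lowest library. EGLN2, a hydroxylase that acts on HIF, stood at 171.9 and 119.5 in CTL cells with DMSO and SAG and at 149.2 and 100.4 in ZNF521 cells (-0.55, SE 0.195, unadjusted p = 0.0151, edgeR). EGLN2 has 63.8% GC, and with the correction its value was -0.30 and it was not called. The calls make 2 of 12 genes, where 11.3% of all genes were called with SAG in either direction. The other 10 tested genes of that list, EPAS1, ARNT, VHL and EGLN1 among them, passed no threshold in either comparison. HIF1A protein is set mainly by its degradation, and protein was not measured here.

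Of 32 tested further hypoxia-induced genes, 2 were called higher with SAG, where 6.21% of all genes were: PLOD2, a collagen lysyl hydroxylase (0.33, SE 0.148), and BHLHE41, a circadian repressor (0.58, SE 0.173). With ZNF521, 3 were called lower, where 3.11% of all genes were, namely BHLHE41 (-0.44, SE 0.172), LOXL2, a lysyl oxidase of the matrix (-0.47, SE 0.217), and PGF, a relative of VEGFA (-0.40, SE 0.156). LOXL2 stood at 1655 normalized counts in DMSO-treated CTL cells and at 827.3 to 912.9 in the other 3 libraries, and without the former its log2 fold change was 0.02. Without that library PLOD2 was at 0.21 for SAG and was not called, and BHLHE41 was at 0.88. With the correction for GC content PLOD2 was at 0.04 and not called, while the other calls of this list held. PGF was then also called higher with SAG (0.34). The medians of the list were 0.09 for SAG and -0.06 for ZNF521.

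Of 17 tested isozymes and side branches of glycolysis, 0 were called with ZNF521, where 5.48% of all genes were. With SAG 3 were called higher, where 6.21% of all genes were. These were LDHB, the lactate dehydrogenase subunit of oxidative tissues (0.53, SE 0.173), BPGM, which makes 2,3-bisphosphoglycerate (0.36, SE 0.165), and PGM2L1, which makes glucose 1,6-bisphosphate (0.38, SE 0.15). LDHB stood at 238.2 and 402.6 normalized counts in CTL cells with DMSO and SAG and at 345.7 and 432 in ZNF521 cells. Of 13 tested genes of pyruvate entry into mitochondria, DLD, a subunit of pyruvate dehydrogenase (0.49, SE 0.168), and SLC16A1, a carrier of pyruvate and lactate (0.34, SE 0.146), were called higher with SAG. Without DMSO-treated CTL cells the values were 0.27 for LDHB, 0.25 for PGM2L1 and 0.19 for DLD. With the correction for GC content LDHB was at 0.41 and still called, whereas BPGM (0.23), PGM2L1 (0.09), DLD (0.20) and SLC16A1 (0.14) were not.

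In the pentose phosphate pathway (6 tested) and the citric acid cycle (16 tested), 0 genes were called in either comparison. Of all genes, 11.3% were called with SAG and 5.48% with ZNF521. Of 14 stress response genes, 1 was called higher with SAG and 1 lower with ZNF521, where 6.21% and 3.11% of all genes were. DNAJB9, a chaperone of the endoplasmic reticulum, was higher with SAG (0.42, SE 0.17, and 0.13 and not called with the correction for GC content). HSPA5, its main partner chaperone, was lower with ZNF521 (-0.52, SE 0.23). With the correction HSPA5 was still called with ZNF521 and was also called lower with SAG (-0.46). HSPA5 stood at 6786 normalized counts in DMSO-treated CTL cells and at 3181 to 3610 in the other 3 libraries, and its log2 fold change for ZNF521 without the former was -0.00. ATF4, DDIT3 and the other 10 genes of this list passed no threshold. All calls in these lists rest on the unadjusted threshold, and none passed the adjusted one.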

How the data were processed

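Per the labels, stranded libraries of DAOY cells, called both poly-A-enriched and ribosomal RNA-depleted, were aligned by the authors to hg38 with STAR 2.7.0e. The deposited raw table holds counts per gene. The deposited normalized table holds signal values, that is, counts over 1 size factor of DESeq2 per library (0.887 to 1.19), as computed by the authors. The annotation and strand setting are not given in the sources used here. Totals of 12294833 to 16314685 set the counting error.

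Tests covered the 14970 genes that reached 10 counts in 2 or more libraries and used edgeR 4.0.16 under R 4.3.3 (TMM, quasi-likelihood F-test, ZNF521 and SAG as additive terms, 1 residual and 11.7 prior degrees of freedom), with Benjamini-Hochberg adjustment over all genes. The fit was tested on simulated data with the same spread for every gene, no GC trend, no unequal response and no library that stood apart. Those data differ from the real ones, so that test does not show how the fit behaves here. Alternatives used other factors and filters, DESeq2 1.42.0, limma 3.58.1, 20 bins of GC content and each library left out. That F-test gives no standard error, so each SE is the absolute log2 fold change over the square root of F. Ratios of 2 libraries have exact Clopper-Pearson intervals. Transcript length, GC content and shared 50-base stretches came from GENCODE v44, in which 97.2% of genes matched.

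The members and the lists around them were chosen with earlier results of these data known. All members are covered, in full where a p was at most 0.05, a pair differed by 1.5-fold or the gene led its isozymes. Up to 4 genes of each further list, those of smallest p, were named, and ATF4, DDIT3, EPAS1, ARNT, VHL and EGLN1 for their role. The paired test that the study ran in BRB-ArrayTools was not repeated.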

Additional observations from a re-analysis of the deposited data

Results flagged for a closer look

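There were 5 genes that moved in opposite directions in the pairs of libraries that make up 1 comparison, with both counting intervals off a ratio of 1. Each pair has 1 library a side, so the difference between the pairs was not tested. The share of all genes that meet this rule was not counted, so whether 5 genes are more than usual cannot be told. Counting intervals are narrow in well counted genes, so a ratio near 1 can meet the rule. TPI1 did so in ZNF521 cells with SAG against DMSO, at 0.957 (0.939 to 0.975). HK2 was lower with SAG in CTL cells (ratio 0.842, 95% counting interval 0.77 to 0.92) and higher in ZNF521 cells (1.21, 1.10 to 1.32), a log2 difference of -0.52 between CTL and ZNF521 cells. PGAM1 was higher with SAG in CTL cells (1.25) and lower in ZNF521 cells (0.914), a log2 difference of 0.45. For PFKP (1.17 and 0.916) the difference was 0.35, for NDRG1 (1.13 and 0.917) 0.30 and for TPI1 (1.12 and 0.957) 0.23. PFKP was also higher in ZNF521 than in CTL cells with DMSO (1.22) and lower with SAG (0.951), again a difference of 0.35, since the same 4 libraries give both. In each of these 6 cases CTL cells with DMSO were the lowest or the highest library, and the part of that library was not tested.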

How the results depend on the processing

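With 1 library per condition and 1 residual degree of freedom, the spread behind each p is mostly borrowed from other genes, and the 95% counting intervals of pairs say nothing of biological spread. Each condition has 1 library, so the replicate numbers pair nothing, and libraries pair only by the other factor. The fit compares within treatment and within cells through the term for that factor. Without that term the counts of called members were also 0 for ZNF521 and 3 for SAG, against 2.97% and 9.38% of all genes. For ZNF521, the count of members at an unadjusted p of at most 0.05 was 0, and 1 with no filter on low counts or with limma (ALDOA) and 2 with the correction for GC content. With 1 library left out it ran from 0 to 14, the latter without CTL cells with SAG, where 27.8% of all genes were called. For SAG the count was 3, and 0 with DESeq2, where 2.83% of all genes were called. It was 4 with the correction for GC content, none of them among the 3. With 1 library left out it ran from 0 (without either SAG library) through 7 (without CTL cells with DMSO) to 20 (without ZNF521 cells with DMSO), where 40.8% of all genes were called. A fit of 3 libraries sets 1 library against 2 and has no term for the other factor. The median of the enzymes for SAG was -0.04 without CTL cells with DMSO, on the other side of 0 but within the standard error, and the cause was not tested. With 1 library left out, HK2 ran from -0.23 (without ZNF521 cells with DMSO) to 0.24 for SAG and LOXL2 from -0.94 to 0.02 (without CTL cells with DMSO) for ZNF521, so both changed sign. Of 510 values of single members under the other settings, 496 kept their call or lack of one, 6 lost a call and 8 gained one. The main fit called 0 members for ZNF521 and 3 for SAG, so most of the 496 were uncalled throughout. Among uncalled values, 13 changed sign. Of 256 with 1 library left out, 215 kept their call or, in most cases, their lack of one, and 44 uncalled values changed sign. The others gained a call, lost one or were reversed, in fits that set 1 library against 2. HIF1A was higher with SAG under each alternative, at 0.41 to 0.85. The alternatives for genes that are not members were added after the data were seen.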
